A study of Homo sapiens with 2 samples.

Results

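Among the probes of 2 arrays of HepG2 cells, those that hold a run of bases alternating between cytosine and adenine, or between thymine and guanine, are described here. A probe was a member if its 60 bases, read as listed, held at least 8 consecutive bases of 1 of these alternations and if it belonged to the linear probes, that is, to the Agilent catalogue or to the second custom series. There were 1008 members among 116953 linear probes and 138405 probes in all. A cytosine-adenine run was held by 436 members and a thymine-guanine run by 583, and 11 members held both. The repeat types were chosen by their difference between the same 2 arrays, so the differences below are descriptions and carry no test.

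HepG2 is an established human liver cancer cell line. Cells of 1 condition (NC) received a synthetic siRNA of scrambled sequence, and cells of the other condition (siFOXA1) received a mixture of 3 siRNAs against FOXA1, a forkhead transcription factor that opens chromatin in liver and other endodermal cells. RNA was collected 48 h after the transfection, copied into Cy3-labelled cRNA and hybridised to 1 one-colour array per condition, both on 1 slide. With 1 array per condition there was no replicate check on any difference, and the condition and the array cannot be told apart. Probes were not paired with genes in the columns used here, so the level of FOXA1 and liver markers were not analysed here.

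Alternating cytosine-adenine bases on one DNA strand are thymine-guanine bases on the other, and this pair forms the most common dinucleotide repeat of the human genome. Such repeats, called microsatellites, lie at very many places in genes and between them, and their length varies between individuals. The bases of a run alone therefore do not point to 1 transcript.

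The 3 longest runs of each type among members measured on both arrays are shown first, since the differences described below varied with run length, and the run is in capitals. The members with a cytosine-adenine run were these.
A_33_P3257513: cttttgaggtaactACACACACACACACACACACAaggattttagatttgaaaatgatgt
A_33_P3236340: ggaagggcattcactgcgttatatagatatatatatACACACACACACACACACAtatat
CUST_H6L_47741: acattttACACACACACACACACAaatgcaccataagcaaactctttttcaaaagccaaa
The members with a thymine-guanine run were these.
A_33_P3345936: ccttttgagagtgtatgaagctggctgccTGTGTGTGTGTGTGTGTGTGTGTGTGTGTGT
A_33_P3602006: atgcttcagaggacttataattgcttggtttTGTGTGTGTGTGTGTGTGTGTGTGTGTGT
A_33_P3867461: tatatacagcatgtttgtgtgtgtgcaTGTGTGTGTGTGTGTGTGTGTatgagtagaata
The 5 cytosine-adenine members with the lowest ratio of siFOXA1 to NC, among those chosen by the rule for named probes, all held a run of exactly 8 bases that began with cytosine directly after a guanine, a feature taken up below.
CUST_H6L_56950: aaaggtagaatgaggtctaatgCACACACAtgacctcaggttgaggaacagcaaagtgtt
CUST_H6L_71980: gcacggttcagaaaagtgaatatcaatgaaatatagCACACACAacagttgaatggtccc
CUST_H6L_60579: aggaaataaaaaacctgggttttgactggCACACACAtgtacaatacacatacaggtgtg
CUST_H6L_75830: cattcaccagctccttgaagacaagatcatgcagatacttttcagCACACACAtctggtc
CUST_H6L_07585: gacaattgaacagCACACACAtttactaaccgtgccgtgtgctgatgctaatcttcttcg
The 5 thymine-guanine members with the highest ratio had runs of 8 to 12 bases.
CUST_H6L_69213: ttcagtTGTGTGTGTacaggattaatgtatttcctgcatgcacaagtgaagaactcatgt
A_23_P16469: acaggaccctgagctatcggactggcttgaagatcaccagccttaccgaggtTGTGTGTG
CUST_H6L_10565: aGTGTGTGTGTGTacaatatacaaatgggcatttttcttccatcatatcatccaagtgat
CUST_H6L_07992: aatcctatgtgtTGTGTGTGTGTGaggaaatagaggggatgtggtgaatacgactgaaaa
A_33_P3337627: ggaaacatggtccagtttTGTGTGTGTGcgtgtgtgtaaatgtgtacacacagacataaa

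Signals are given as the scanner software's processed signal of the probe, without scaling between arrays. A difference is the log2 of siFOXA1 over NC after the 75th percentile of each array, 86.2 on NC and 75 on siFOXA1, was set equal. A probe was well above background where the software called at least 50% of its spots so. Lower and higher mean a change of more than 1.4-fold, and only probes that passed the background call on 1 array or both were counted. Medians of differences take the probes that passed it on both, which are called measured on both arrays.

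Probes with a cytosine-adenine run gave less signal on the siFOXA1 array. Their median signal was 46.1 on NC and 29.1 on siFOXA1. Of 321 counted, 169 (52.6%) were lower, where 12.3% of all linear probes were, and 20 (6.23%) were higher, against 11.5% of all linear probes. The median difference was -0.49 over 282 probes (quartiles -1.30 and -0.02), with 215 below 0 and 67 above, whereas the median of all 62059 linear probes measured on both arrays was -0.022. With normexp background correction, which adds an offset of 50, 104 cytosine-adenine probes were lower and 5 higher, with a median of -0.23. Of 758 probes with other alternating runs, described below, 9 were then lower and 32 higher. The spread was wide, and the upper quartile of the cytosine-adenine probes lay at the median of all probes. At 2-fold, 112 were lower and 7 higher, with 2.98% and 3.88% of all linear probes, and at 1.2-fold 200 were lower and 32 higher, with 25.0% and 20.9%. Of the 169 lower probes, 141 were measured on both arrays and 28 passed the background call on NC alone, and of these 28, 22 differed by at least 1.4-fold when the dimmer signal was raised to the lowest signal well above background.

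Probes with a thymine-guanine run moved the other way. Their median signal was 24.3 on NC and 26.0 on siFOXA1. Of 394 counted, 144 (36.5%) were higher and 34 (8.63%) were lower, against the same 11.5% and 12.3% of all linear probes. Without scaling between arrays, which moved the difference of every probe by -0.20, 125 were higher and 62 lower, and with normexp 75 were higher and 12 lower. The median difference was 0.22 over 358 probes (quartiles -0.07 and 0.84), with 249 above 0 and 109 below. At 2-fold, 69 were higher and 8 lower, and at 1.2-fold 187 were higher and 65 lower. Of the 144 higher probes, 126 were measured on both arrays and 18 passed the background call on siFOXA1 alone, 17 of which passed 1.4-fold at the bound.

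The share of probes well above background was 56.2% on NC and 55.1% on siFOXA1 over all linear probes, and 62.6% and 62.3% over the other alternating runs described next. For cytosine-adenine runs it was 72.5% on NC (316 of 436, exact binomial 95% interval 68.0 to 76.6%) and 65.8% on siFOXA1 (287 of 436, 61.2 to 70.3%). For thymine-guanine runs it was 63.5% on NC (370 of 583, 59.4 to 67.4%) and 65.5% on siFOXA1 (382 of 583, 61.5 to 69.4%). The intervals cover counting error over probes only. Both arrays read the same probes, so the intervals do not compare the arrays. Of the probes counted here, 282 cytosine-adenine and 358 thymine-guanine probes passed on both arrays.

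Probes with other alternating runs of 8 or more bases and no member run served as the comparison. There were 1171 of them, with a median difference of 0.13 over 704 probes. Their median signal was 26.1 on NC and 23.7 on siFOXA1. Of 758 counted, 66 were lower and 100 higher, and without scaling 121 were lower and 43 higher, since the shift of -0.20 turns the sign of a median this close to 0. The median of the cytosine-adenine probes lay 0.62 below theirs and that of the thymine-guanine probes 0.086 above. With normexp these gaps were -0.30 and 0.040, and with no filter on dim probes -0.44 and 0.022. The other types differed among themselves. Adenine-guanine runs had a median of -0.016 over 239 probes and adenine-thymine runs one of 0.015 over 100, both within that shift. Cytosine-thymine runs had a median of 0.24 over 362 probes, close to that of thymine-guanine runs, but narrower quartiles, 0.048 and 0.39. Among these cytosine-thymine probes 50 of 374 (13.4%) were higher at 1.4-fold and 14 (3.74%) lower, against 11.5% and 12.3% of all linear probes. At 2-fold 5 of 384 (1.30%) were higher when those that also hold a member run were included, against 3.88% of all linear probes. The thymine-guanine and cytosine-thymine probes thus had like medians, while more of the thymine-guanine probes, 69 of 394, passed 2-fold.

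The difference was larger in the classes of longer runs. For cytosine-adenine runs of 8 to 11 bases the median was -0.41 over 248 probes, and 141 of 287 counted were lower and 19 higher. For runs of 12 to 15 bases it was -1.13 over 30 probes, with 24 of 30 lower and 1 higher. All 4 probes with 16 bases or more were lower, with a median of -1.41. For thymine-guanine runs the medians were 0.13 over 296 probes, 0.95 over 50 and 1.05 over 12 in the same classes. The first of these, which covers most thymine-guanine probes, was no higher than the median of the other runs and is smaller than the shift of -0.20, so that its sign turns without scaling. Of the 54 thymine-guanine probes with 12 to 15 bases that were counted, 47 were higher and 0 lower, and of the 13 with 16 or more, 11 were higher and 0 lower. The rank correlation of run length with the difference, across probes that share the same 2 arrays and some of their bases, was -0.17 over 282 cytosine-adenine probes and 0.50 over 358 thymine-guanine probes. It was 0.33 over 372 cytosine-thymine, 0.06 over 246 adenine-guanine and -0.01 over 113 adenine-thymine probes, in each case with the few that also hold a member run. By single lengths the order was not strict, since the cytosine-adenine median was -0.34 at 8 bases, -0.16 at 9, -0.62 at 10, -0.86 at 11, -1.27 at 12 and -1.01 at 13. The thymine-guanine median was 0.15 at both 9 and 10 bases, 0.50 at 11, 1.16 at 12, 1.19 at 13 and 0.83 at 14.

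Just inside the minimum, cytosine-adenine runs of exactly 8 bases had a median of -0.34, with 68 of 147 counted lower and 15 higher. Just outside it, runs of exactly 7 bases had a median of -0.070, with 93 of 431 (21.6%) lower and 48 (11.1%) higher. Of all linear probes 12.3% were lower, so the share at 7 bases was still above theirs. For thymine-guanine runs the median was 0.074 at 8 bases, below that of the other runs, with 30 of 182 (16.5%) higher and 24 (13.2%) lower, near the 11.5% and 12.3% of all linear probes, and -0.020 at 7 bases, with 59 of 538 higher and 59 lower.

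The longest cytosine-adenine runs sat in bright probes. A_33_P3257513, with 21 alternating bases, had a signal of 43512 on NC and 17241 on siFOXA1, a difference of -1.13. A_33_P3236340, with 19, went from 11801 to 3826 (-1.42), and CUST_H6L_47741, with 17, from 27941 to 8278 (-1.55). All 3 were lower on siFOXA1 by between 2.20-fold and 2.94-fold. The median NC signal was 38.2 for runs of 8 to 11 bases, 820 for 12 to 15 and 34868 for 16 or more. This rise was not particular to cytosine-adenine runs. In cytosine-thymine runs, with those that also hold a member run, the medians were 224, 858 and 44485, the last over 2 probes.

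The longest thymine-guanine runs were dimmer. A_33_P3345936, with 31 alternating bases, had a signal of 1918 on NC and 3145 on siFOXA1, a difference of 0.91. A_33_P3602006, with 29, went from 1429 to 2273 (0.87), and A_33_P3867461, with 21, from 1943 to 3323 (0.98). These 3 probes differed in the bases outside the run, and their differences all lay between 0.87 and 0.98. The median NC signals of the 3 classes were 19.4, 72.1 and 866.

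The steepest differences under percentile scaling came from short runs. CUST_H6L_56950 had a signal of 649 on NC and 50.3 on siFOXA1 and was 11.2-fold lower. CUST_H6L_71980 fell from 412 to 36.2 and CUST_H6L_75830 from 806 to 75.9, while CUST_H6L_07585 fell from 111 to 11.6. On siFOXA1, where the lowest signal called well above background was 7.73, CUST_H6L_07585 was near that floor and the others were above it. With normexp background correction these differences moved by over 1.5-fold, from -3.49 to -2.58 for CUST_H6L_56950 and from -3.06 to -1.22 for CUST_H6L_07585, and their order changed. The bright A_22_P00002440, with a run of 10 bases, was then lower than all 5, with -2.65 against -2.73 under percentile scaling. The brightest cytosine-adenine probe, A_22_P00015489, went from 113941 to 33962, a difference of -1.55. The next brightest by mean signal were CUST_H6L_39103, from 91500 to 36480 (-1.13), and A_22_P00013314, from 91603 to 25665 (-1.63).

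The highest thymine-guanine ratio under percentile scaling was that of CUST_H6L_69213, with a signal of 11.3 on NC and 48.3 on siFOXA1, which was 4.92-fold higher. A_23_P16469 rose from 65.4 to 229 and CUST_H6L_10565 from 43.0 to 149. CUST_H6L_07992 went from 25.4 to 81.8 and A_33_P3337627 from 59.3 to 188. All 5 were dim on NC, where 65.4 was the highest signal among them. With normexp all 5 differences moved by over 1.5-fold, and CUST_H6L_69213, from 2.30 to 0.68, became the smallest of them, while A_23_P16469 became the largest. The 3 brightest thymine-guanine probes differed little. CUST_H6L_05753 had 131307 on NC and 136872 on siFOXA1 (0.26), CUST_H6L_02315 had 32399 and 29661 (0.074), and CUST_H6L_31086 had 7934 and 6821 (-0.017). Their sign turned with the scaling in 2 cases, to -0.13 for CUST_H6L_02315 without scaling and to 0.097 for CUST_H6L_31086 with quantile normalization.

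A minority of members went against their type. The counts of both types under the 3 settings below stand without the share of all linear probes under them, which was not analysed here. Of the cytosine-adenine probes measured on both arrays, 3 were higher by 1.4-fold under each of percentile scaling, quantile normalization and normexp background correction, against 103 that were lower, and they are shown with the run in capitals.
A_33_P3302736: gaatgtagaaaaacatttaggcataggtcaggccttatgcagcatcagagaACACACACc
A_23_P170733: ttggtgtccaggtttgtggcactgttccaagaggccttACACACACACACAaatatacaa
A_22_P00007124: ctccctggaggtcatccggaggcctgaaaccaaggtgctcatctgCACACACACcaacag
A_33_P3302736 had a signal of 77.0 on NC and 162 on siFOXA1 (1.28), A_23_P170733 had 315 and 552 (1.01), and A_22_P00007124 had 124 and 183 (0.76). The run started at bases 52, 39 and 46, toward the end of the probe as listed.

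Among thymine-guanine probes 12 were lower under the same 3 settings and 74 higher. The 5 lowest are shown, with the thymine-guanine run in capitals.
A_33_P3285585: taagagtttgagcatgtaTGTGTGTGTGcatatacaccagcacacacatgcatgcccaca
A_33_P3263232: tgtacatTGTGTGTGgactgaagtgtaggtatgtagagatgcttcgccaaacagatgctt
CUST_H6L_05070: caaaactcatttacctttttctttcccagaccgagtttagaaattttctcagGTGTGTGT
CUST_H6L_22391: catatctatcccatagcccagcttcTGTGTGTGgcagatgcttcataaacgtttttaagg
A_24_P161036: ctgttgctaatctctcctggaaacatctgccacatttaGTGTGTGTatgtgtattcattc
A_33_P3285585 stood far from the other 4, with a signal of 1359 on NC and 153 on siFOXA1 (-2.95). It is 1 of the 11 members that hold both runs, and its cytosine-adenine run of 8 bases follows a guanine. The next lowest, A_33_P3263232, went from 94.8 to 35.7 (-1.21, or -0.61 with normexp), and the brightest of the 5, A_24_P161036, from 4031 to 1752. Of the 11 members with both runs, 3 were well above background. The other two were CUST_H6L_25995, with 19.4 on NC and 14.2 on siFOXA1 (-0.25), and CUST_H6L_56311, with 16.3 and 30.2 (1.09), whose thymine-guanine run of 14 bases is longer than its cytosine-adenine run of 9.

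Cytosine-adenine runs that began with cytosine directly after a guanine had a lower median difference than the others, a feature singled out after the values were seen. Such runs, with which the probe held GCACACACA, were present in 74 members. Of 71 counted, 60 were lower and 2 higher, and the median difference was -2.14 over 64 probes (quartiles -2.66 and -1.38). In the other 362 cytosine-adenine members 109 of 250 were lower and 18 higher, with a median of -0.29 over 218 probes. Runs that began with adenine had medians of -0.33 over 29 after guanine, -0.42 over 48 after thymine and -0.15 over 48 after adenine. Those that began with cytosine had medians of -0.41 over 43 after thymine and -0.16 over 35 after cytosine. The 2 probes with GCACACACA that were higher were A_22_P00007124 and CUST_H6L_56311, named above. The members with this start were also brighter, with a median signal of 632 on NC and 137 on siFOXA1, against 29.2 and 21.6 in the others.

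The same split held at each run length with at least 9 probes on either side. At exactly 8 bases the median was -2.07 over 35 probes with the guanine and cytosine start and -0.14 over 91 without it. At 9 bases the values were -1.70 over 12 and -0.14 over 62, and at 10 bases -2.58 over 9 and -0.55 over 27. In runs of 12 or more it was -2.01 over 6 probes and -1.13 over 28. Runs of exactly 7 bases, outside the rule, had -0.34 over 52 probes with this start and -0.05 over 330 without it. Without this start the medians at 7 to 9 bases thus lay between -0.14 and -0.05. Even so, 33 of 106 counted (31.1%) were lower at 8 bases and 15 higher. At 9 bases 24 of 68 (35.3%) were lower and 2 higher, where 12.3% of all linear probes were lower. Medians below -1 came only in the longest runs without this start, while with it the median at 8 bases was as low as in runs of 12 or more.

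The reverse complement, TGTGTGTGC, was held by 107 members, which is 0.0915% of linear probes, against 0.0633% for GCACACACA. Of 78 counted, 42 were higher and 4 lower, with a median of 0.53 over 70 probes. By the base before a thymine-guanine run the medians were 0.15, 0.25, 0.10 and 0.27 after adenine, cytosine, guanine and thymine. With the first base taken as well, runs that began with guanine after a cytosine had a median of 0.70 over 28 probes, with 17 of 29 counted higher and 0 lower. Those that began with guanine after an adenine had one of 0.073 over 45, and those that began with thymine after a cytosine one of 0.21 over 72.

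The place of the run in the probe went with a smaller difference. Cytosine-adenine runs centred in bases 1 to 20 had a median of -0.58 over 103 probes, those in bases 21 to 40 one of -0.55 over 97, and those in bases 41 to 60 one of -0.24 over 82. For thymine-guanine runs the medians were 0.26 over 119, 0.26 over 126 and 0.17 over 113. In both types the last part of the probe as listed had the value nearest to 0.

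Some members were printed 10 times, and their spots repeat the same measurement on each array. They cover the noise between spots and not that between cultures. Of 13 cytosine-adenine members of this kind that were measured on both arrays, 8 had every used spot below 0 and 2 had every spot above it, and 7 were lower and 0 higher by 1.4-fold. Of 16 thymine-guanine members, 7 had every used spot above 0 and 3 had every spot below it, and 5 were higher and 1 lower by 1.4-fold. Spots on 1 side of 0 were not particular to members. Of 12 cytosine-thymine probes, A_33_P3372910 among them, 7 had every used spot above 0 and 3 below it, with 1 higher and 0 lower by 1.4-fold. For 9 adenine-guanine probes these counts were 3 and 2, with 1 higher and 1 lower.

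The extremes of these members were separated well beyond their spots. CUST_H6L_60579, with 10 spots, ranged from 406 to 448 on NC and from 31.5 to 54.9 on siFOXA1, a difference of -3.26 ± 0.19 (mean and SD over the spots left after flags). A_22_P00002440 ranged from 15571 to 17629 on NC and from 2043 to 2300 on siFOXA1 (-2.73 ± 0.046). The spots of neither probe overlapped between the arrays. CUST_H6L_70559 ranged over 9 spots from 38.0 to 58.9 on NC and from 122 to 149 on siFOXA1 (1.60 ± 0.18), and A_33_P3226788 from 29.9 to 38.7 and from 70.7 to 92.8 (1.49 ± 0.20), again without overlap. With normexp CUST_H6L_60579, CUST_H6L_70559 and A_33_P3226788 moved by over 1.5-fold, to -2.19, 0.96 and 0.70, while A_22_P00002440 was at -2.65. Against the direction of its type, A_33_P3372910 with a cytosine-adenine run of 8 bases had a difference of 0.35 ± 0.031, and it also holds a longer cytosine-thymine run, of 11 bases. A_24_P291401 with a thymine-guanine run had one of -0.82 ± 0.10.

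Members also shared sequence. On the same strand 43 members shared at least 20 bases with another member, in 30 pairs, so that not all members are separate measurements. The thymine-guanine probes CUST_H6L_07688 and CUST_H6L_69655 are identical in sequence. CUST_H6L_07688 had 32.4 on NC and 30.0 on siFOXA1 (0.087), and CUST_H6L_69655 had 32.9 and 40.2 (0.49), so that 1 of them passed 1.4-fold and the other did not. On opposite strands 19 pairs of a cytosine-adenine and a thymine-guanine probe, each measured on both arrays, shared 20 to 25 bases in reverse complement. These pairs were made by 8 cytosine-adenine and 12 thymine-guanine probes, and much of what they shared was the repeat itself. In every one of the 19 pairs the cytosine-adenine probe was below 0, between -1.77 and -0.57, and the thymine-guanine probe above 0, between 0.38 and 1.24. Both types were chosen by these directions, and the pairs hold long runs, of 10 to 21 and 11 to 31 bases. Without any pairing, 27 of 30 cytosine-adenine probes with 12 to 15 bases were below 0 and 48 of 50 such thymine-guanine probes above it. The pairs therefore add no separate support. The pair with the most shared bases, 25, was A_33_P3298612, with 269 on NC and 114 on siFOXA1 (-1.04), and A_33_P3239102, with 265 and 526 (1.19). At almost the same signal on NC, these 2 probes moved apart in opposite directions.

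Positions in the genome were looked up only in RefSeq's table of sequences around gene starts (GRCh38.p14), where 5 members were found whole. They were A_22_P00004064 at LRRK1-AS1, A_33_P3297321 at LOC105371559, A_33_P3379046 at EPHA4, CUST_H6L_26450 at LRP2BP and CUST_H6L_58960 at C3orf70. A match places the probe's bases beside a gene start and does not name the transcript it measures. The positions of the other members were not analysed here.

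Probes of the first custom series, taken as circRNA probes from their prefix and not from an annotation, were not members. The order in which their bases are listed was not checked here, and an alternating run keeps its type when read backwards. Of these, 33 held a cytosine-adenine run and 49 a thymine-guanine run. Among 10 cytosine-adenine probes counted, 8 were lower and 0 higher, where 11.2% of 4882 circRNA probes were lower. Among 13 thymine-guanine probes, 11 were higher and 0 lower, where 11.2% of circRNA probes were higher. The medians were -0.98 over 8 probes and 0.99 over 11. Most of the thymine-guanine probes counted held runs of 16 to 27 bases, longer than those of most members. Many had neighbouring numbers, such as CUST_H6C_11929 to CUST_H6C_11932, as did the cytosine-adenine probes CUST_H6C_18489 and CUST_H6C_18490. Whether these probes share sequence was not checked here, so they may not be separate measurements.

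These circRNA probes were read on the same arrays, and most of their values ran the same way as those of the members. CUST_H6C_15741, with a cytosine-adenine run of 8 bases, had a signal of 516 on NC and 53.2 on siFOXA1 (-3.08), and CUST_H6C_18489, with 23 bases, had 11320 and 3816 (-1.37). CUST_H6C_11930, with a thymine-guanine run of 27 bases, had 1147 and 2028 (1.02). Here too a short cytosine-adenine run had the steepest difference. Among the thymine-guanine probes with 16 bases or more that were measured on both arrays, the differences ran from 0.59 for CUST_H6C_12476 to 1.44 for CUST_H6C_11929. On the other side of 0 from its type was CUST_H6C_08505, with a thymine-guanine run of 9 bases, 336 on NC and 284 on siFOXA1 (-0.042).

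Kind of probe, base composition, signal and place on the slide were set beside these differences, and their part in them was not tested. Catalogue and second custom series members gave like medians, -0.50 and -0.48 for cytosine-adenine and 0.24 and 0.19 for thymine-guanine runs. By the number of guanine and cytosine bases in the probe, up to 23, 24 to 28, and 29 or more, the cytosine-adenine medians were -0.58, -0.46 and -0.46 and the thymine-guanine medians 0.64, 0.20 and 0.14, with 0.13, 0.16 and 0.10 for other runs. By signal, the 63 cytosine-adenine probes with a mean log2 signal of 10 or more had a median of -1.57, the 42 between 8 and 10 one of -0.28, the 79 between 6 and 8 one of -0.48, and the 86 between 4 and 6 one of -0.26. Thymine-guanine probes had medians of 0.054 over 31, 0.22 over 60, 0.26 over 96 and 0.25 over 150 in the same bins. When rows, and likewise columns, of the array were split into 4 equal blocks, the block medians of members printed once ran from -0.63 to -0.27 for cytosine-adenine and from 0.12 to 0.41 for thymine-guanine runs, so that every block had the direction of its type under percentile scaling. Without scaling, thymine-guanine blocks with a median under 0.20 turn below 0.

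The siRNAs themselves hold related bases. Bases 2 to 8 of an siRNA strand, its seed, pair with matching sites in transcripts, and the seed of 1 FOXA1 antisense strand is CACACCU, whose site as listed in a probe is AGGTGTG. This site was present in 25 thymine-guanine and 5 cytosine-adenine members. Over probes measured on both arrays, the thymine-guanine median was 0.25 over 19 with the site and 0.22 over 339 without it. The cytosine-adenine median was -1.39 over 4 with it and -0.49 over 278 without it, and that of all 282 linear probes with the site was 0.018.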

How the data were processed

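Total RNA of HepG2 cells was measured on 2 one-colour Agilent arrays, NC and siFOXA1, 1 per condition, as the labels and the methods give them. Per the file headers, the authors' scanner files hold an intensity for each spot that Feature Extraction 10.7.1.1 had background-subtracted and spatially detrended. The deposited matrix holds log2 values of the same probes, and how they were made is not given in the sources used here. It served as an alternative.

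Spots flagged as outliers were left out, log2 processed signals of a probe were averaged over its spots, and each array's 75th percentile over non-control probes was subtracted. Members were found by a search for the longest strictly alternating run in the 60 bases listed. No test was made with 1 array per condition. Shares of probes well above background have exact binomial 95% intervals, other shares have none, and precision is limited throughout by having 1 array per condition. Members, lists and rules were chosen with earlier results of these data known. Probes were named by this rule: for each type, the 3 longest runs and the 3 brightest probes measured on both arrays, the 5 lowest and 5 highest ratios that passed 1.4-fold the same way under percentile scaling, normexp (offset 50) and quantile normalization, and the 2 lowest and 2 highest of those printed 10 times. Opposite-strand pairs, members with both runs, circRNA probes, sequence words and flanking bases were named after their values were seen. The alternatives were other scalings, normexp, the authors' matrix, other filters, folds of 1.2 and 2, flagged spots kept, and other choices of members. Scripts were tested on simulated data. The software was R 4.3.3 with limma 3.58.1, and Python 3.11.15 with scipy 1.17.1, pandas 2.3.3 and numpy 2.4.6. Gene names of probes, positions in the genome beyond gene starts, and the level of FOXA1 were not analysed here.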

Additional observations from a re-analysis of the deposited data

How the results depend on the processing

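The median over all probes of each type kept its sign under every alternative tried, though that of thymine-guanine runs of 8 to 11 bases turns without scaling. Of the recomputed counts, 66 stayed within 1.5 times and 30 did not, and of the medians and gaps 42 moved by less than the spread between spots and 10 by more. That spread, a median SD of 0.11 between spots of a probe, does not measure the error of a median over many probes. It exceeds the thymine-guanine gap to other runs, 0.086, and so cannot judge that gap. The cause of the moves was not tested. Without scaling, 13 cytosine-adenine probes were higher, 62 thymine-guanine probes lower, and 121 and 43 other-run probes lower and higher, with medians of -0.69 and 0.020 for the member types. With normexp background correction and an offset of 50, 104 cytosine-adenine probes were lower and 5 higher, 12 and 75 thymine-guanine probes, and 9 and 32 other-run probes. The cytosine-adenine median was then -0.23 and its gap to other runs -0.30, and the thymine-guanine median was 0.12 and its gap 0.040. With no filter on dim probes, 38 cytosine-adenine probes were higher, 53 thymine-guanine probes lower, and 109 and 165 other-run probes lower and higher, with a cytosine-adenine median of -0.30 and a gap of -0.44. The thymine-guanine gap was then 0.022. At 2-fold, 112 and 7 cytosine-adenine, 8 and 69 thymine-guanine, and 14 and 23 other-run probes were lower and higher. At 1.2-fold, 32 cytosine-adenine probes were higher, 65 thymine-guanine probes lower, and 131 and 257 other-run probes lower and higher. With a minimum run of 10 bases, 70 of 94 cytosine-adenine probes were lower and 1 higher, 4 and 95 of 142 thymine-guanine probes, and 6 and 18 of 119 other-run probes, with medians of -1.01 and 0.86 and gaps of -1.28 and 0.60. Leaving out members that share 20 bases, chosen after seeing the data, left 158 cytosine-adenine probes lower and 126 thymine-guanine probes higher.

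Of the named probes, A_23_P215265 turned from 0.11 to -0.088 and CUST_H6L_02315 from 0.074 to -0.13 without scaling, and CUST_H6L_31086 turned from -0.017 to 0.097 under quantile normalization, 0.067 under normexp and 0.094 in the authors' values. No paired analysis was possible because there was a single array of either condition, and a slide block could not be fitted. Signals near background limit the dim members, since 321 of 436 cytosine-adenine and 394 of 583 thymine-guanine members passed the background call on at least 1 array.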

Other observations

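Words of 9 bases were ranked by the median difference of the linear probes that hold them, over the 59349 words present in at least 20 probes measured on both arrays. The ranking was chosen after the values of the members were seen, reads each probe as listed, and carries no test. Among the 10 lowest words, 9 held a cytosine-adenine alternation of 5 bases or more and 4 one of 8 or more. Among the 10 highest, all held a thymine-guanine alternation of 5 or more and 4 one of 8 or more. The highest word was GCGTGTGTG, in 26 linear probes of which 19 were members, with 14 of 21 counted higher and 0 lower and a median of 0.92. The next, GTGTGTGTG, was held by 205 members, with 106 of 168 counted probes higher and 6 lower and a median of 0.80 over 154.

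The lowest word was no member word. CACAGCACA, in which a guanine breaks the alternation, was held by 40 linear probes (0.0342%), none of them a member. Of 30 counted, 20 were lower and 4 higher, and the median was -2.14 over 27 probes (quartiles -2.49 and -0.27), the same to 2 decimals as that of GCACACACA. The 3 lowest of these probes are shown, with the word in capitals.
CUST_H6L_33033: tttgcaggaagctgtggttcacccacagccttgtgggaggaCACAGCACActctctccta
A_22_P00013558: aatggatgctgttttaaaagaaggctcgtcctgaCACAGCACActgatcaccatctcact
CUST_H6L_31126: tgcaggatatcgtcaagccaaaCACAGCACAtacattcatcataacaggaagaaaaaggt
Their signals were 465 on NC and 42.4 on siFOXA1 (-3.25), 517 and 54.2 (-3.05), and 1479 and 159 (-3.01). The reverse complement, TGTGCTGTG, in 63 linear probes with no member run, had a median of 0.14 over 32, with 11 of 37 counted higher and 4 lower.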
